A study of Mus musculus with 6 samples.

Results

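One RNA sequencing library of mouse macrophages given 2-hydroxyestrone (2OHE1) before lipopolysaccharide (LPS) was compared with 3 control libraries and with the libraries of the other 2 hydroxyestrogens of the study. It is 1 of 6 libraries in all, chosen by its title and its column header. Bone marrow-derived macrophages were grown from the marrow of C57BL/6N females aged 8 weeks with 20 ng/mL M-CSF, in medium without phenol red and with charcoal-stripped serum, and were replated on day 7. Each culture received vehicle or a steroid for 1 h and then LPS at 100 ng/mL for 6 h. The controls were the ethanol vehicle (EtOH), estradiol (E2) and a compound labelled 16Epi, and the other hydroxyestrogens were 2-hydroxyestradiol (2OHE2) and 4-hydroxyestrone (4OHE1). All 6 cultures had LPS, so no unstimulated level is available. The unit of the dose is garbled in the labels; 1 mM stocks diluted 1000-fold give 1 µM. The treatment field of the labels calls this library a control and the vehicle library treated; the titles and the column headers, which name the compounds, were followed. Nothing in the labels says whether the cultures came from separate animals. The p-values measure only the spread between the 3 control libraries, which differ in treatment, and that spread may otherwise be technical.

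Estrone and estradiol are oxidised in the body at the aromatic A ring, and a second hydroxyl beside the first makes a catechol estrogen. Catechols can be oxidised further to quinones, electrophiles that react with thiols. In mouse and human cells, the sensor protein KEAP1 normally holds the transcription factor NRF2 (Nfe2l2) for degradation, and modified KEAP1 thiols let NRF2 reach antioxidant response elements in the promoters of genes for glutathione synthesis, thioredoxin, heme breakdown and quinone reduction. LPS acts through TLR4 and switches on cytokine genes through NF-κB and, through interferon beta, the interferon-stimulated genes. 2OHE1 differs from 2OHE2 by a ketone in place of a hydroxyl on the D ring, and from 4OHE1 by the A-ring carbon that carries the second hydroxyl.

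The values are RPKM, reads scaled by transcript length and by the tags of the library, so levels may be set side by side between genes. A gene was tested if its transcript length was at least 200 nt and its mean over the 6 libraries at least 5 RPKM, which 7120 of 24016 genes met. The 2OHE1 library held 16424057 reads in genes and the others 14734225 to 17326353. Macrophage markers were abundant, except Mertk at 0.720 RPKM with 2OHE1: the 10 markers, among them Csf1r, Cd68, Spi1 and Lyz2, summed to 7847 RPKM with 2OHE1 against 8705 to 9079 in the controls. Lyz2, the largest term, was at 4445 RPKM with 2OHE1 and 5005 to 5434 RPKM in the controls, while Csf1r and Cd68 lay above all controls. Of 7 neutrophil markers in the table, all near 0, the sum was 0.697 RPKM with 2OHE1 and 2.64 to 4.61 in the controls. It came mostly from Camp with EtOH and 16Epi (3.15 and 2.23 RPKM) and from Camp and Ngp with E2 (1.88 RPKM each). In the 2OHE1 library Camp had 2 reads and Ngp 11. S100a8, an abundant neutrophil transcript on a further list, was within the controls at 25.9 against 21.3 to 37.0 RPKM. At 0 in all 6 libraries were 5 of 7 mast cell, 4 of 8 T or NK cell, 3 of 5 B cell and 5 of 6 erythroid markers. Markers of mast cells and B cells summed to 0 RPKM and those of T or NK cells to 0.176 with 2OHE1, those of dendritic cells to 3.02 and those of stromal or endothelial cells to 26.8, against 23.8 to 27.9 for the last in the controls. In bulk RNA, fewer cells of a kind and less RNA per cell cannot be told apart.

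With 2OHE1 the genes that rose most included Ednrb, Layn, Gclc, Slc40a1 and Hmox1, and those that fell most included Vsig8, Serpinb2, Il1a and Ifnb1. Of 7120 genes, 140 passed the threshold against the controls (limma's moderated test on log2(RPKM + 0.1), adjusted p under 0.05), a background of 1.97%; they are named called below. Higher were 95 genes (1.33%) and lower 45 (0.632%). Among them 17 rose and 13 fell by at least 2-fold, and all 140 lay outside the range of the 3 controls. That range alone is a loose measure: 28.1% of all genes tested lay above it with 2OHE1, 35.2% below it and 36.7% within it. The single 2OHE1 library was assumed to vary like the controls, which are themselves 3 different treatments. The number of calls moved with the settings: without E2, 27 of the 140 genes remained called, without EtOH there were 492 calls and without 16Epi 181, while a constant prior variance left 0 (with 1145 genes at an unadjusted p under 0.05, against 1259 with the variance trend) and a minimum fold of 1.5 left 5. Without a filter on low values 245 of 16399 genes were called, but only 15 of the 140 were among them; of the lists described below, the 5 antioxidant lists then gave 3 calls, the cytokines 0, both chemokine families 0 and the feedback inhibitors 1. The 5 genes that passed with the minimum fold were Ednrb, Gclc, Il1a, Serpinb2 and Vsig8.

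**Figure D1:**
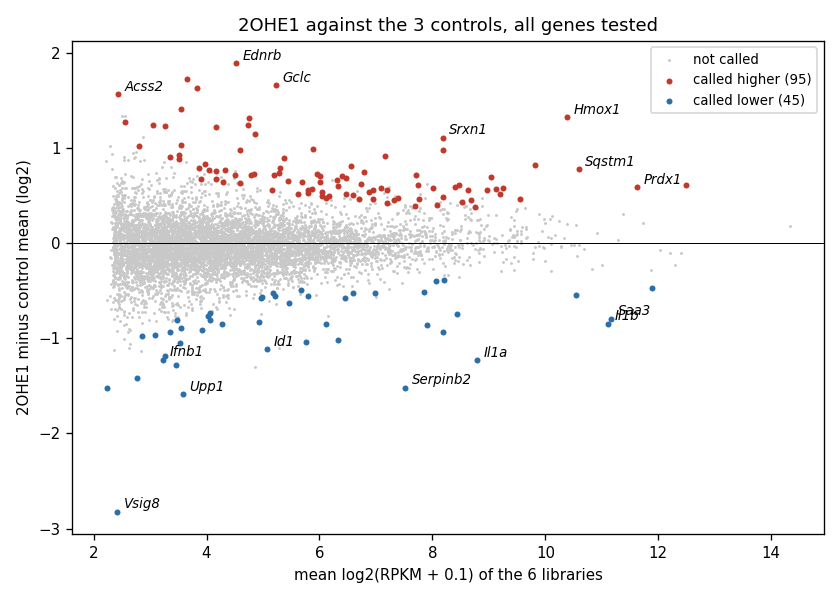
Each point is 1 of 7120 genes, with the mean log2(RPKM + 0.1) of the 6 libraries on the x axis and the log2 difference of the 2OHE1 library from the mean of the 3 controls on the y axis. The 95 genes called higher (red) and 45 called lower (blue) lie from low expression, as Acss2 and Vsig8, to high, as Prdx1.

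Several genes of glutathione synthesis and use rose. Of 14 tested genes on this list 6 were called higher and 0 lower, and 9 lay above the control range, where 28.1% of all genes tested lay. The median log2 difference was 0.35 beside -0.02 for all genes tested. Gclc, the catalytic subunit of glutamate-cysteine ligase, which makes the rate-limiting step of glutathione synthesis, read 20.6 with EtOH, 21.4 with E2, 21.4 with 16Epi, 62.1 with 2OHE2, 71.4 with 4OHE1 and 67.0 RPKM with 2OHE1. All 3 hydroxyestrogen libraries stood far above the controls. The difference of Gclc from the controls with 2OHE1 was 1.66 ± 0.10 (SE, adjusted p = 0.00053) on the log2 scale, a 3.17-fold level. Gclm, the regulatory subunit of the same enzyme, was at 227, 205 and 202 RPKM in the 3 controls and at 416 RPKM with 2OHE1, a difference of 0.98 ± 0.09 (SE, adjusted p = 0.00231). Glutathione synthetase, Gss, which adds the last amino acid, went from 14.5, 17.5 and 15.9 RPKM in the controls to 31.6 RPKM, a difference of 0.98 ± 0.13 (SE, adjusted p = 0.0132). Gsta3, a glutathione transferase, was at 4.96 to 5.75 RPKM in the controls and 12.9 RPKM with 2OHE1, with a difference of 1.24 ± 0.17 (SE, adjusted p = 0.0136). Smaller rises passed for Gsr, glutathione reductase, at 0.46 ± 0.07 (SE, adjusted p = 0.0278), and for Abcc1, an exporter of glutathione conjugates, at 0.43 ± 0.07 (SE, adjusted p = 0.03). Slc7a11, the cystine transporter that feeds glutathione synthesis, was the highest of all 6 libraries at 154 RPKM against 123 to 130.0 RPKM in the controls, but was not called (0.27 ± 0.08 SE, adjusted p = 0.122). Gpx1 and Gpx4, which use glutathione to reduce peroxides, read 257 and 102 RPKM with 2OHE1 and 257 to 296 and 104 to 106 RPKM in the controls, and neither was called. Glrx, glutaredoxin 1, lay lowest of the list and of the 6 libraries at 125 RPKM against 157 to 186 RPKM in the controls, without a call (-0.48 ± 0.10 SE, adjusted p = 0.066); limma-voom called it lower (adjusted p = 0.00985), as did the authors' deposited log2 values and the fit without EtOH. Without E2, Gclc, Gclm and Gss remained called, and the adjusted p of Gsta3 was 0.0735, of Gsr 0.105 and of Abcc1 0.124. In the authors' deposited log2 values Gss differed by 0.52 and Gsta3 by 0.36.

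The thioredoxin list, which serves the other main thiol pathway of the cell, held 11 tested genes, of which 4 were called higher and 0 lower. Srxn1, the sulfiredoxin that repairs overoxidised peroxiredoxins, read 206 with EtOH, 194 with E2, 185 with 16Epi, 396 with 2OHE2, 483 with 4OHE1 and 420.0 RPKM with 2OHE1. Its log2 difference was 1.11 ± 0.08 (SE, adjusted p = 0.00148), and no control came near any hydroxyestrogen library. Txnrd1, thioredoxin reductase, rose from 419, 405 and 400.4 RPKM in the controls to 603 RPKM, a difference of 0.56 ± 0.07 (SE, adjusted p = 0.0073). Prdx1, one of the most abundant transcripts of the table, was at 2401 to 2619 RPKM in the controls and 3806 RPKM with 2OHE1, and differed by 0.59 ± 0.07 (SE, adjusted p = 0.00882). Prdx6 differed by 0.75 ± 0.08 (SE, adjusted p = 0.00572). An antisense entry, AV051173, overlaps Prdx1 and rose with it (0.81 ± 0.08 SE, adjusted p = 0.00404); no source says whether counting used strand, so reads of such pairs cannot be told apart. Txn1 itself, at 449 RPKM with 2OHE1 and 358 to 398 RPKM in the controls, was not called, nor were Prdx2, Prdx3 and Prdx5. Without E2, Srxn1 remained called and the adjusted p of the other 3 ranged up to 0.0895. In the authors' deposited log2 values AV051173 differed by 0.50.

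Heme and iron genes gave 6 calls higher and 0 lower among 12 tested. Hmox1, heme oxygenase 1, which breaks heme into biliverdin, carbon monoxide and iron, read 906 with EtOH, 841 with E2, 733 with 16Epi, 2024 with 2OHE2, 2462 with 4OHE1 and 2064 RPKM with 2OHE1. The 2OHE1 value was 2.50 times the control mean, with a log2 difference of 1.33 ± 0.11 (SE, adjusted p = 0.00172). Blvrb, which reduces biliverdin, differed by 0.52 ± 0.07 (SE, adjusted p = 0.013), and Slc48a1, which moves heme out of lysosomes, by 0.59 ± 0.09 (SE, adjusted p = 0.0169). Ferroportin, Slc40a1, the iron exporter of macrophages, was at 10.0, 7.39 and 7.93 RPKM in the controls and at 26.1 RPKM with 2OHE1, a difference of 1.63 ± 0.19 (SE, adjusted p = 0.00623). Of the ferritin chains, Ftl1 went from 4048 to 4809.7 RPKM in the controls to 6950.4 RPKM (0.61 ± 0.11 SE, adjusted p = 0.0317; its many pseudogenes make the count uncertain), whereas Fth1, the most abundant of these transcripts, was at 18688 to 19439 RPKM in the controls and 21709 RPKM with 2OHE1 and was not called (0.18 ± 0.07 SE, adjusted p = 0.251). Slc11a1, the iron transporter of the phagosome, differed by 0.39 ± 0.07 (SE, adjusted p = 0.0408). The transferrin receptor Tfrc was below the control range at 27.2 RPKM, against 29.9 to 35.3 RPKM, without a call. Without E2 the calls of Hmox1 and Slc40a1 remained, and the adjusted p of the other 4 ranged up to 0.13. Slc40a1 differed by 0.96 in the authors' deposited log2 values.

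Of the 10 tested genes of quinone and carbonyl detoxification 5 were called higher, 0 lower, and the median log2 difference was 0.52. Nqo1, which reduces quinones by 2 electrons and is often read as an NRF2 marker, was at 67.3 with EtOH, 69.6 with E2, 58.0 with 16Epi, 105 with 2OHE2, 119.9 with 4OHE1 and 106 RPKM with 2OHE1. Its difference from the controls was 0.71 ± 0.11 (SE, adjusted p = 0.0251). Cbr3, a carbonyl reductase, had the largest rise of the list, from 17.6, 16.6 and 16.1 RPKM in the controls to 39.9 RPKM with 2OHE1 (1.25 ± 0.11 SE, adjusted p = 0.00231). Ptgr1 (0.79 ± 0.13 SE, adjusted p = 0.026), Akr1b8 (0.66 ± 0.09 SE, adjusted p = 0.0135) and Esd (0.38 ± 0.07 SE, adjusted p = 0.0324) also rose. The pentose phosphate and other NADPH-making enzymes gave 1 call among 10 tested: Pgd, at 470.0, 464 and 437 RPKM in the controls and 681 RPKM with 2OHE1 (0.58 ± 0.07 SE, adjusted p = 0.00879). G6pdx, Taldo1, Tkt and Me1 lay above all controls, at 0.21, 0.34, 0.08 and 0.55 log2, without being called. Without E2 the adjusted p of Cbr3 was 0.0246, of Nqo1 0.0797, of Ptgr1 0.105, of Akr1b8 0.0735, of Esd 0.126 and of Pgd 0.079. Cbr3 differed by 0.60 in the authors' deposited log2 values.

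Over the 5 lists together, 22 of 57 tested genes were called higher and 0 lower, 39 lay above the control range and 6 below it, and the median log2 difference was 0.31. Of all genes tested 1.33% were called higher, 28.1% lay above that range and 35.2% below it. Of these 22 calls 7 remained without E2, with log2 differences still between 0.41 and 1.67 for the 22 genes. Regulators of the pathway gave 1 call. Nfe2l2 was at 114, 106 and 101 RPKM in the controls and at 126 RPKM with 2OHE1, the highest of the 6 libraries, and Keap1 at 51.8 to 59.5 RPKM in the controls and 67.6 RPKM with 2OHE1; neither was called (0.23 ± 0.09 SE, adjusted p = 0.242 and 0.31 ± 0.11 SE, adjusted p = 0.181). Bach1, a repressor of Hmox1, and Mafg, a partner of NRF2, were above all controls without a call (0.37 ± 0.16 SE, adjusted p = 0.266 and 0.37 ± 0.09 SE, adjusted p = 0.0832). Of 8 regulators tested only Sqstm1, the autophagy receptor p62 that binds KEAP1, was called, at 1204 (EtOH), 1162 (E2), 1119 (16Epi), 1725 (2OHE2), 2481 (4OHE1) and 1995 RPKM (2OHE1). The difference of Sqstm1 was 0.78 ± 0.07 (SE, adjusted p = 0.00231), with an adjusted p of 0.0405 without E2.

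**Figure D2:**
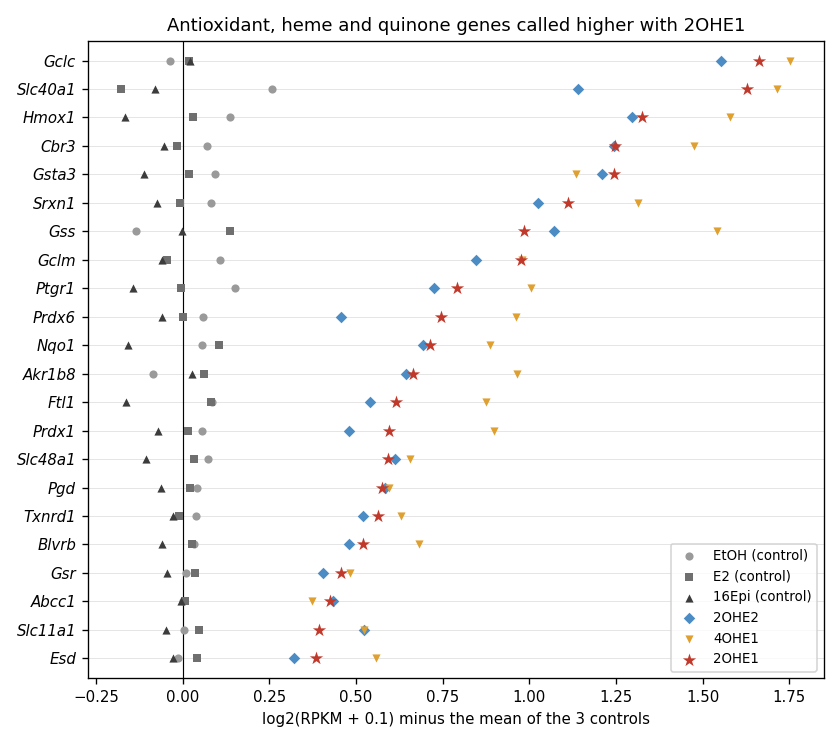
For each of the 22 genes of the antioxidant, heme, quinone and NADPH lists called higher, the points give log2(RPKM + 0.1) of each of the 6 libraries minus the mean of the 3 controls. The 2OHE1 star stands right of all 3 controls for every gene, beside or right of 2OHE2 for most and left of 4OHE1 for many, such as Gss and Prdx6.

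Promoters of some genes called higher are shown. These genes were chosen for being higher with 2OHE1, so their shared direction is not a result. RefSeq promoters (GRCm38.p6, 250 bases before to 50 after each start) were found for 75 of the 95 genes called higher, and the letters TGACNNNGC, the core of the antioxidant response element, were searched on both strands. They occurred in 17 of the 75 (22.7%), in 6 of the 15 promoters of the called antioxidant-list genes (40.0%), in 17.9% of the promoters of all genes tested and in 14.0% of all promoters in the table. For the antioxidant lists as a whole, called or not, the share was 10 of 49 promoters (20.4%), near that of all genes tested. The following windows of 39 bases, read 5′ to 3′ on the strand of the gene, carry the match in capitals.
Gclm, chr3:122245408-122245446, plus strand: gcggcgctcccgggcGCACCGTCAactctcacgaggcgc
Prdx1, chr4:116685451-116685489, plus strand: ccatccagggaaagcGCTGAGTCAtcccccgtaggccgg
Txnrd1, chr10:82859099-82859137, plus strand: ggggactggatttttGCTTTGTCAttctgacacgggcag
Gsta3, chr1:21240449-21240487, plus strand: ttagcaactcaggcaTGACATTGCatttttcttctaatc
Procr, chr2:155751048-155751086, plus strand: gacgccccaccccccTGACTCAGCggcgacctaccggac
Acss2, chr2:155517921-155517959, plus strand: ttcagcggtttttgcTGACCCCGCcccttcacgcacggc
Gclm, Prdx1 and Txnrd1 hold the letters in reverse complement, and the match begins 134, 133 and 92 bases before the start site. Procr, the protein C receptor of the cell surface, rose by 0.92 ± 0.11 (SE, adjusted p = 0.00879) and Acss2 by 1.57 ± 0.20 (SE, adjusted p = 0.0105); both were chosen for display after their values were seen. A match in such a window describes the letters only, and the share among the genes called higher lay little above that among all genes tested.

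Inflammatory genes mostly lay below the controls, but few passed the test. Of 19 tested cytokines and mediators 5 were called lower and 0 higher, 15 lay below the control range and 4 above it, and the median log2 difference was -0.24. Of all genes tested 35.2% lay below that range and 28.1% above it. Il1a, the cell-bound form of interleukin-1, fell most: it read 742 with EtOH, 687 with E2, 775 with 16Epi, 232 with 2OHE2, 261 with 4OHE1 and 313 RPKM with 2OHE1. Its difference was -1.23 ± 0.08 (SE, adjusted p = 0.00102), a level in the controls 2.35 times that with 2OHE1. Reads of Il1a and of its antisense entry Gm14023, which was also called (-1.02 ± 0.10 SE, adjusted p = 0.00404), cannot be told apart. Il1b, the secreted form, was at 3166 (EtOH), 3042 (E2), 3236 (16Epi), 1176 (2OHE2), 1808 (4OHE1) and 1752 RPKM (2OHE1). The fall of Il1b was -0.85 ± 0.07 (SE, adjusted p = 0.00172), and the 2OHE1 value lay near that with 4OHE1 and above that with 2OHE2. Ifnb1, interferon beta, read 15.8 with EtOH, 15.98 with E2, 20.9 with 16Epi, 1.59 with 2OHE2, 9.57 with 4OHE1 and 7.41 RPKM with 2OHE1, and differed by -1.22 ± 0.20 (SE, adjusted p = 0.0278). Saa3, an acute-phase protein of macrophages, was at 3070.3, 2902 and 2652 RPKM in the controls and 1655 RPKM with 2OHE1, the lowest of the 6 libraries (-0.79 ± 0.09 SE, adjusted p = 0.00572). Edn1, endothelin-1, fell from 20.2 to 23.2 RPKM in the controls to 12.4 RPKM (-0.77 ± 0.14 SE, adjusted p = 0.0377).

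Other cytokines of the same programme did not pass. Il12b, a subunit of interleukin-12, and Tnfsf15 lay just outside the threshold, at 186, 152 and 166 RPKM in the controls against 114 RPKM for the first (-0.56 ± 0.11 SE, adjusted p = 0.0502 and -0.81 ± 0.16 SE, adjusted p = 0.0502). Il6 was at 387 to 456 RPKM in the controls and 369 RPKM with 2OHE1 (-0.21 ± 0.10 SE, adjusted p = 0.317). Nos2, which makes nitric oxide, differed by -0.14 ± 0.08 (SE, adjusted p = 0.419). Tnf was the highest of the 6 libraries at 2076 RPKM, against 1849.7 to 1977 RPKM in the controls, and Ptgs2, the inducible cyclooxygenase, likewise at 889 against 764 to 875 RPKM; neither was called (0.11 ± 0.07 SE, adjusted p = 0.47 and 0.13 ± 0.09 SE, adjusted p = 0.486). Irg1, which makes itaconate, lay between 2464 and 2531 RPKM in all 6 libraries. Without E2, Il1a and Il1b remained called, and the adjusted p of Ifnb1 was 0.0895, of Saa3 0.0735 and of Edn1 0.114. In the authors' deposited log2 values the fall of Ifnb1 was -0.27 and that of Edn1 -0.38.

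Chemokines gave calls in both directions. Of 10 CC chemokines tested 3 were called lower, 0 higher, and 9 lay below all controls, with a median log2 difference of -0.58. Over all genes tested 35.2% lay below and 28.1% above all controls. Ccl2, which draws monocytes, went from 515, 448 and 444 RPKM in the controls to 280.2 RPKM (-0.74 ± 0.10 SE, adjusted p = 0.0105). Ccl9 differed by -0.54 ± 0.06 (SE, adjusted p = 0.00702) and Ccl4 by -0.47 ± 0.07 (SE, adjusted p = 0.0178). Ccl5 was the exception, the highest of the 6 libraries at 3786 RPKM against 3235 to 3295 RPKM in the controls, without a call. Of 7 CXC chemokines, which include the neutrophil attractants, 3 lay above and 4 below the control range, and the median log2 difference was -0.06. Cxcl3 was called higher and read 783 with EtOH, 654 with E2, 672 with 16Epi, 976 with 2OHE2, 1329 with 4OHE1 and 1237 RPKM with 2OHE1. The difference of Cxcl3 was 0.82 ± 0.10 (SE, adjusted p = 0.00886); Cxcl1 and Cxcl2 lay above all controls without a call (0.37 ± 0.08 SE, adjusted p = 0.0588 and 0.30 ± 0.06 SE, adjusted p = 0.0588). Cxcl11, counted here on a non-coding entry, was called lower (-0.58 ± 0.10 SE, adjusted p = 0.0335). Cxcl10, an interferon-induced attractant of T cells, lay below the controls at 3615 against 4187 to 4753 RPKM without a call (-0.28 ± 0.09 SE, adjusted p = 0.159). None of these 5 calls remained without E2, where the adjusted p ranged from 0.0735 to 0.132 for the genes of both families. Cxcl11 differed by -0.32 in the authors' deposited log2 values.

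Feedback inhibitors gave calls in the same direction. Il1rn, the interleukin-1 receptor antagonist, was at 336, 322 and 335 RPKM in the controls and 183 RPKM with 2OHE1 (-0.86 ± 0.07 SE, adjusted p = 0.00172), and Il10, the main anti-inflammatory cytokine of macrophages, fell from a control range of 50.1 to 54.7 RPKM to 33.9 RPKM (-0.63 ± 0.10 SE, adjusted p = 0.0246). These were the 2 calls, both lower, among 20 tested, of which 14 lay below the control range, where 35.2% of all genes tested lay. The median log2 difference was -0.16. Socs1 (-0.38 ± 0.08 SE, adjusted p = 0.0501), Socs3 (-0.36 ± 0.07 SE, adjusted p = 0.0546) and Cish (-1.06 ± 0.26 SE, adjusted p = 0.0891), inhibitors of cytokine receptor signalling, lay below all controls without a call. Tnfaip3, Nfkbia and Dusp1 differed by -0.13, -0.20 and -0.03 log2. Atf3, a stress-induced repressor of cytokine genes, was the highest of the 6 libraries at 238 RPKM against 178 to 216 RPKM in the controls, without a call (0.28 ± 0.11 SE, adjusted p = 0.218). Serpinb2, plasminogen activator inhibitor 2 of activated macrophages, had 1 of the largest falls of all: it read 294 with EtOH, 313 with E2, 331 with 16Epi, 73.8 with 2OHE2, 152 with 4OHE1 and 109 RPKM with 2OHE1 (-1.52 ± 0.09 SE, adjusted p = 0.00053). Without E2, Serpinb2 and Il1rn remained called, and the adjusted p of Il10 was 0.0843; in the authors' deposited log2 values Il10 differed by -0.36.

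**Figure D3:**
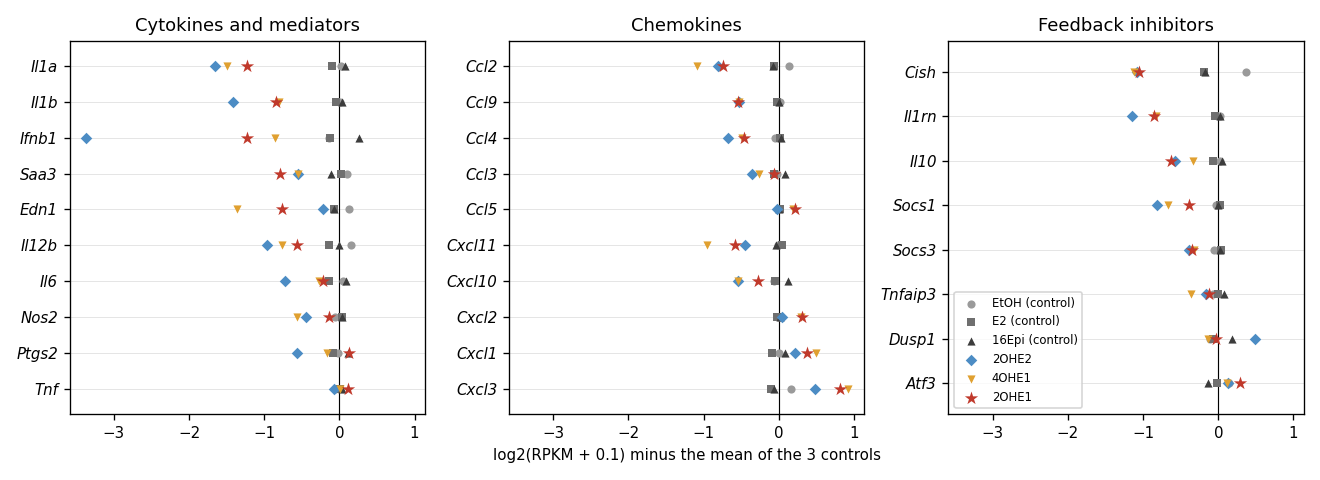
Log2(RPKM + 0.1) of each library minus the mean of the 3 controls, for 10 cytokine and mediator genes, 10 chemokine genes and 8 feedback genes. The 2OHE1 star lies left of the controls for Il1a, Il1b, Ifnb1, Ccl2 and Il1rn, among them for Dusp1, and right of them for Cxcl3, and for Il1a, Il1b, Ifnb1, Il12b and Il6 it lies nearer to the controls than the 2OHE2 diamond.

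Surface receptors moved in both directions. Ednrb, the endothelin B receptor, had the largest rise of all genes called and read 13.1 with EtOH, 10.5 with E2, 12.5 with 16Epi, 34.0 with 2OHE2, 54.0 with 4OHE1 and 44.9 RPKM with 2OHE1. Its log2 difference was 1.90 ± 0.15 (SE, adjusted p = 0.00172). Layn, layilin, a hyaluronan-binding lectin, was at 5.81, 6.21 and 8.18 RPKM in the controls and 22.3 RPKM with 2OHE1 (1.73 ± 0.20 SE, adjusted p = 0.00702). Fcgr3 and Fcgr2b, receptors for the constant part of IgG, fell to 66.7 and 189 RPKM from 93.9 to 105 and 259.8 to 285 RPKM (-0.58 ± 0.09 SE, adjusted p = 0.0255 and -0.51 ± 0.08 SE, adjusted p = 0.0246), and both were the lowest of the 6 libraries. Fcgr4 and Marco, a scavenger receptor, lay below all controls without a call (-0.61 ± 0.12 SE, adjusted p = 0.0558 and -0.67 ± 0.16 SE, adjusted p = 0.0769). Of 19 tested members 2 were called higher and 2 lower, and 10 lay below the control range, where 35.2% of all genes tested lay. Macrophage identity genes gave 1 call among 16: Cebpa, a myeloid transcription factor, at 23.6, 19.2 and 19.5 RPKM in the controls and 34.3 RPKM with 2OHE1 (0.73 ± 0.14 SE, adjusted p = 0.0441). Of those 16, 11 lay below the control range, among them Cx3cr1 (-0.82 ± 0.17 SE, adjusted p = 0.0536) and Lyz2 (-0.23 ± 0.07 SE, adjusted p = 0.168), and Csf1r and Cd68 lay above it. The summed level of the macrophage markers was also below the controls in this library. Its largest terms were Lyz2, at 4445 against 5005 to 5434 RPKM, and Cd14, at 1567 against 1830 to 1998 RPKM. Csf1r, at 461 against 425 to 433 RPKM, went the other way, as did Cd68. The part of this sum in these values was not tested. Without E2 the adjusted p was 0.00836 for Ednrb, 0.0507 for Layn, 0.0801 for Fcgr3, 0.0895 for Fcgr2b and 0.145 for Cebpa. The authors' deposited log2 values gave 0.73 for Layn and 0.48 for Cebpa.

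Metabolic genes changed in single members. Acss2, which makes acetyl-CoA from acetate, rose from 3.16, 2.65 and 2.97 RPKM to 8.87 RPKM (1.57 ± 0.20 SE, adjusted p = 0.0105), and was the 1 call among 25 sterol and fatty acid synthesis genes; an antisense entry, Acss2os, overlaps it, at a mean of 1.52 RPKM. Of these 25, 16 lay above the control range and 7 were highest of the 6 libraries with 2OHE1, among them Insig1, which holds back sterol synthesis (0.38 ± 0.11 SE, adjusted p = 0.133). Over all genes tested 28.1% lay above that range and 13.4% were highest with 2OHE1. In glycolysis 2 of 22 tested genes were called, Pgam1 and Pgk1, which catalyse neighbouring steps: Pgam1 was at 38.8, 36.4 and 34.3 RPKM in the controls and 57.7 RPKM with 2OHE1 (0.66 ± 0.10 SE, adjusted p = 0.0255), and Pgk1 at 62.6 to 78.7 against 116 RPKM (0.68 ± 0.13 SE, adjusted p = 0.0422). Ch25h, which makes 25-hydroxycholesterol, fell from 84.1, 75.6 and 90.1 RPKM to 40.6 RPKM (-1.03 ± 0.11 SE, adjusted p = 0.00572), and Upp1, uridine phosphorylase, from 17.6, 21.1 and 15.0 RPKM to 5.83 RPKM (-1.59 ± 0.20 SE, adjusted p = 0.00888). Gdf15, a stress cytokine, rose from a control range of 14.9 to 19.5 RPKM to 43.6 RPKM (1.32 ± 0.16 SE, adjusted p = 0.00736), and was the 1 call among 19 genes of the ATF4 programme, where Asns and Psat1 differed by -0.04 and -0.11 log2. Of 18 tested genes of the tricarboxylic acid cycle limma called 0, with 2 at an unadjusted p under 0.05, limma-voom also called 0, and 8 lay below the control range. Of all 7120 genes tested, 1259 had an unadjusted p under 0.05 by limma and 35.2% lay below that range. Without E2 the adjusted p was 0.0568 for Acss2, 0.101 for Pgam1, 0.098 for Pgk1, 0.0507 for Gdf15, 0.0246 for Ch25h and 0.0408 for Upp1. In the authors' deposited log2 values the differences were smaller, 0.52 for Acss2, 0.67 for Gdf15, -0.66 for Ch25h and -0.47 for Upp1.

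Interferon-stimulated genes mostly lay within or above the control range with 2OHE1. Of 59 tested, 1 was called higher and 0 lower, 28 lay above the control range and 9 below it, and the median log2 difference was 0.07, against -0.13 for 2OHE2 and -0.09 for 4OHE1, which share the controls. Over all genes tested 28.1% lay above and 35.2% below that range. The 2OHE1 library was the highest of the 6 for 25 of the 59 genes and the lowest for 0, where over all genes tested it was the highest for 13.4% and the lowest for 18.2%. The next highest count was 13, in the 16Epi library; 2OHE2 was the lowest for 26 genes and 4OHE1 for 20. Leaving out each other library in turn gave 25 to 31 genes with 2OHE1 highest, and 0 to 5 with it lowest, 5 of them without 2OHE2. Rsad2, viperin, which blocks viral replication, read 698 with EtOH, 709.7 with E2, 775 with 16Epi, 552 with 2OHE2, 646 with 4OHE1 and 827 RPKM with 2OHE1. The 2OHE1 value stands above every other, but by less than the test requires (0.19 ± 0.08 SE, adjusted p = 0.269). Ifit1 lay close together in the 6 libraries, at 569.8 (EtOH), 536 (E2), 565 (16Epi), 496 (2OHE2), 544 (4OHE1) and 579.6 RPKM (2OHE1). Isg15, a ubiquitin-like modifier, was within the controls at 953 RPKM (0.02 ± 0.07 SE, adjusted p = 0.933). The 1 call was Oasl1, an inhibitor of Irf7 translation, at 340.4, 273 and 280.5 RPKM in the controls and 453 RPKM with 2OHE1 (0.61 ± 0.12 SE, adjusted p = 0.0491; adjusted p = 0.161 without E2). Ifnb1, whose product induces this set, was below the control range in the same library, at 7.41 RPKM.

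The promoters of some of these genes are shown for the element that interferon signalling uses. The letters GAAA, any 2 bases and GAAA again, searched on both strands, occurred in 24 of the 47 promoters found for the list (51.1%), in 6 of the 18 of genes with 2OHE1 highest (33.3%), in 4.22% of all genes tested and in 3.99% of all promoters.
Rsad2, chr12:26456548-26456587, minus strand: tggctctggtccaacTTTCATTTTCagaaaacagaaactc
Ifit1, chr19:34640789-34640828, plus strand: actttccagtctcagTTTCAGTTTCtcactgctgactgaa
Irgm1, chr11:48871426-48871465, minus strand: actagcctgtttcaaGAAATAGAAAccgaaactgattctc
These windows of 40 bases are from RefSeq, GRCm38.p6, and capitals mark the match. Irgm1, a GTPase of the vacuolar defence, was highest with 2OHE1 at 249 RPKM against 219.6 to 233 RPKM in the controls, without a call.

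Cell cycle genes lay low. Of 28 tested, 17 were below the control range and 4 above it. The median log2 difference was -0.19, against -0.16 for 4OHE1 and -0.02 for 2OHE2. By median 2OHE1 lay only -0.02 log2 from 4OHE1, and 12 of the 28 genes were higher with 2OHE1 than with 4OHE1. The 2OHE1 library was the lowest of the 6 for 13 genes, 4OHE1 for 8. Over all genes tested 35.2% lay below the control range and 28.1% above it, and the median was -0.02. The lowest library was 2OHE1 for 18.2% of them and 4OHE1 for 30.7%. The 16Epi control was the highest for 14 of the 28. Ccnb1, cyclin B1 of mitotic entry, was the 1 call lower: it read 18.8 with EtOH, 18.5 with E2, 20.0 with 16Epi, 17.1 with 2OHE2, 14.9 with 4OHE1 and 11.5 RPKM with 2OHE1 (-0.73 ± 0.13 SE, adjusted p = 0.0324). Plk1, a mitotic kinase, at 8.37 RPKM against 12.0 to 14.7 RPKM in the controls, and Bub1b, of the spindle checkpoint, at 4.74 against 7.28 to 9.21 RPKM, were lowest of 6 without a call (-0.67 ± 0.16 SE, adjusted p = 0.0896 and -0.78 ± 0.20 SE, adjusted p = 0.0977). Rrm1, of ribonucleotide reductase, lay there too (-0.48 ± 0.10 SE, adjusted p = 0.0588). Cdkn2b, the cyclin-dependent kinase inhibitor p15, was called higher: 7.15 with EtOH, 6.71 with E2, 7.35 with 16Epi, 18.1 with 2OHE2, 19.6 with 4OHE1 and 18.9 RPKM with 2OHE1. Its difference was 1.41 ± 0.15 (SE, adjusted p = 0.00408), and the 3 hydroxyestrogen libraries lay side by side. Cdkn1a, the inhibitor p21, was highest with 2OHE1 at 1158 RPKM against 939 to 1007 RPKM, without a call (0.26 ± 0.07 SE, adjusted p = 0.109). Leaving out each other library gave 13 to 17 genes with 2OHE1 lowest, and median-ratio scaling 11. Without E2, Cdkn2b remained called, and the adjusted p of Ccnb1 was 0.105; in the authors' deposited log2 values Ccnb1 differed by -0.35 and Cdkn2b by 0.49.

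**Figure D4:**
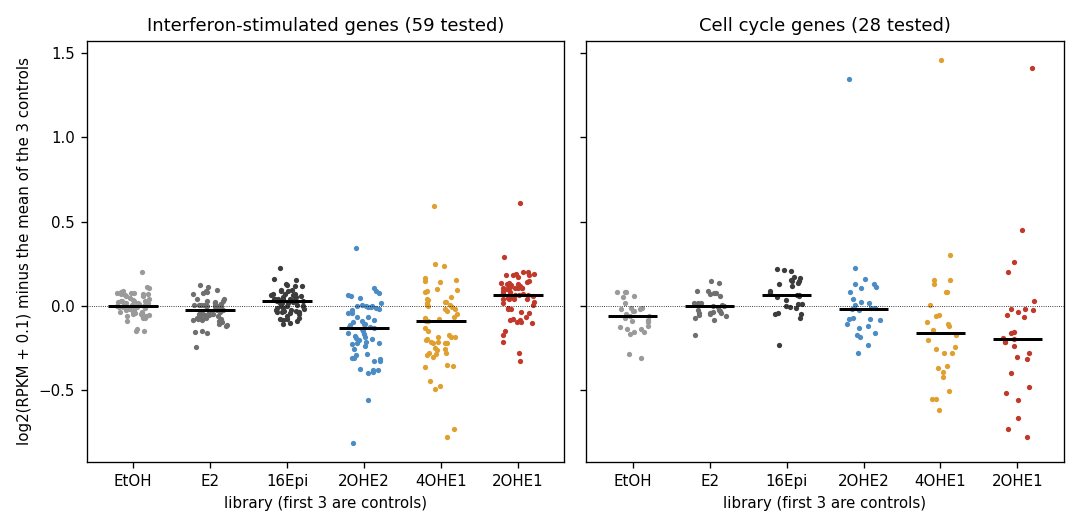
Each point is 1 of 59 interferon-stimulated genes (left) or 28 cell cycle genes (right), as log2(RPKM + 0.1) in that library minus the mean of the 3 controls; bars are medians. The median of the interferon-stimulated genes is above 0 with 2OHE1 (0.07) and below it with 2OHE2 and 4OHE1. The cell cycle median is lowest with 2OHE1 (-0.19), close to that with 4OHE1 (-0.16).

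For some genes the 2OHE1 library stood apart from all 5 others, including the other hydroxyestrogens. It was the highest of the 6 for 954 genes (13.4%) and the lowest for 1295 (18.2%); the same counts were 833 and 927 for EtOH, 872 and 807 for E2, 1379 and 1139 for 16Epi, 1705 and 765 for 2OHE2, and 1370 and 2184 for 4OHE1. By more than 0.25 log2 it was the highest for 73 (1.03%) and the lowest for 190 (2.67%); 2OHE2 was so for 217 and 94 genes, 4OHE1 for 200 and 599, and the controls for 51 to 68 and 59 to 114. The 190 genes had a median transcript length of 1560 nt and a median level of 10.4 RPKM, against 2475 nt and 18.1 RPKM for all genes tested. Of genes called higher 26 were highest of the 6, and of genes called lower 24 were lowest. Beyond 0.25 log2 were 3 of the former and 13 of the latter.

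Vsig8, named for an immunoglobulin-domain surface protein, was counted on a non-coding entry and lay farthest below. It read 7.03 with EtOH, 11.3 with E2, 8.33 with 16Epi, 5.71 with 2OHE2, 4.48 with 4OHE1 and 1.14 RPKM with 2OHE1, which were 32 reads in the 2OHE1 library. The difference from the controls was -2.82 ± 0.28 (SE, adjusted p = 0.00387), and 2OHE1 differed by -1.88 log2 from the nearest other library. Bdh2, a short-chain dehydrogenase, was at 6.77 (EtOH), 4.21 (E2), 5.75 (16Epi), 7.22 (2OHE2), 4.29 (4OHE1) and 1.84 RPKM (2OHE1) (-1.52 ± 0.28 SE, adjusted p = 0.0395), and Hspb11, a subunit of intraflagellar transport also named Ift25, at 2.95 RPKM against 6.43 to 9.76 RPKM in the controls (-1.42 ± 0.25 SE, adjusted p = 0.0317). Tmem159 was at 4.70 RPKM against 8.72 to 12.8 RPKM (-1.19 ± 0.22 SE, adjusted p = 0.0408). Among more abundant genes, Id1, an inhibitor of basic helix-loop-helix transcription factors, read 41.1 with EtOH, 38.9 with E2, 42.1 with 16Epi, 36.1 with 2OHE2, 31.1 with 4OHE1 and 18.8 RPKM with 2OHE1. Its difference was -1.11 ± 0.10 (SE, adjusted p = 0.00297), and it was -0.73 log2 from the nearest other library. Lcn2, lipocalin 2, which binds bacterial siderophores, was chosen after its values were seen; it read 81.1 with EtOH, 82.6 with E2, 78.2 with 16Epi, 75.5 with 2OHE2, 64.5 with 4OHE1 and 44.7 RPKM with 2OHE1 (-0.85 ± 0.08 SE, adjusted p = 0.00403). Neutrophils also make lipocalin 2. S100a8 lay within the controls (-0.10 ± 0.25 SE, adjusted p = 0.88), while Camp was below them at 0.182 RPKM (2 reads) against 1.88 to 3.15 RPKM. The other neutrophil markers were near 0 in all libraries, and a part of neutrophils in the fall of Lcn2 was not tested. Slc25a43, Ppp1r14a and Mri1 also stood far below without a call (-1.12 ± 0.25 SE, adjusted p = 0.0673, -1.30 ± 0.27 SE, adjusted p = 0.0588 and -0.92 ± 0.20 SE, adjusted p = 0.0635). The entry of Slc25a43 is also non-coding. Without E2, Vsig8, Id1 and Lcn2 remained called, and the adjusted p was 0.0673 for Bdh2, 0.126 for Hspb11 and 0.147 for Tmem159. In the authors' deposited log2 values the differences were much smaller: -0.46 for Vsig8, -0.17 for Bdh2, -0.12 for Hspb11, -0.30 for Tmem159, -0.48 for Id1 and -0.48 for Lcn2.

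On the upper side the distances were shorter. Cox7c, a subunit of cytochrome c oxidase, read 49.2 with EtOH, 54.4 with E2, 52.5 with 16Epi, 56.7 with 2OHE2, 62.1 with 4OHE1 and 77.5 RPKM with 2OHE1 (0.58 ± 0.10 SE, adjusted p = 0.0278), and was the 1 call among 52 respiratory chain genes, of which 14 lay above and 16 below the control range. Over all genes tested 28.1% lay above and 35.2% below that range. Chchd2, a mitochondrial protein, was at 58.7, 62.0 and 59.6 RPKM in the controls and 87.7 RPKM with 2OHE1 (0.54 ± 0.09 SE, adjusted p = 0.0251), and Ampd3, an AMP deaminase, at 50.4 to 55.9 against 87.9 RPKM (0.71 ± 0.10 SE, adjusted p = 0.013); these 2 were chosen after their values were seen. Among those farthest above the other libraries without a call, 4933412E12Rik, a non-coding entry, led by 0.58 log2. Also among them were Ndufs5, a subunit of complex I (0.62 ± 0.17 SE, adjusted p = 0.107), and Ndufaf2, an assembly factor of it (0.57 ± 0.17 SE, adjusted p = 0.138). H2-M3, a class I molecule that shows formylated peptides, was another (0.50 ± 0.11 SE, adjusted p = 0.0588). Ndufs5 overlaps the antisense entry BC002163 and H2-M3 has related class I genes, so their counts are uncertain. Without E2 the adjusted p was 0.0895 for Cox7c, 0.0895 for Chchd2 and 0.0735 for Ampd3. The authors' deposited log2 values gave 0.26 for Cox7c and 0.35 for Chchd2.

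**Figure D5:**
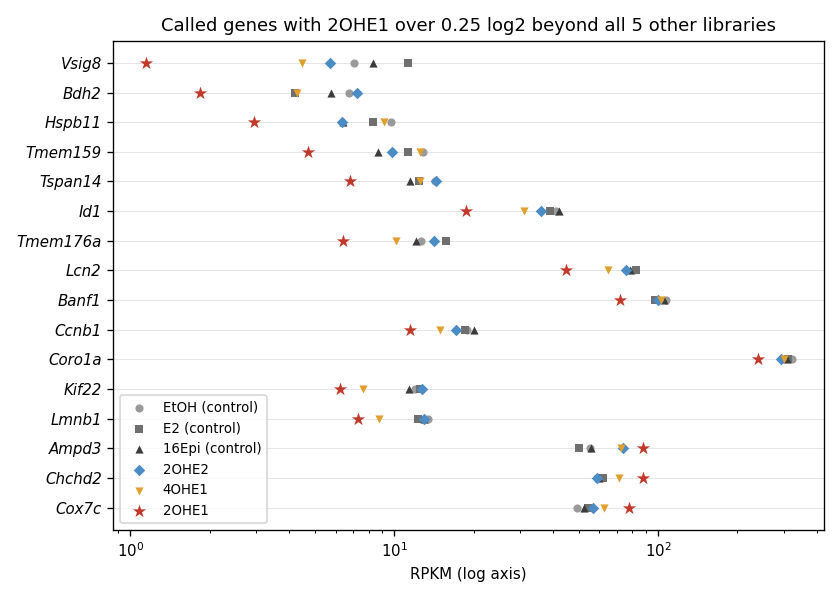
RPKM on a log axis in each of the 6 libraries, for the 16 called genes whose 2OHE1 value lies more than 0.25 log2 beyond all others. The star is leftmost for 13 genes, from Vsig8 to Lmnb1, and rightmost for Ampd3, Chchd2 and Cox7c.

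The 3 hydroxyestrogens were given at the same dose and time, so 2 pairs were compared over all genes, with p-values adjusted over both pairs together. No gene differed between 2OHE1 and 2OHE2 or between 2OHE1 and 4OHE1 by limma's test (0 of 7120, 0.0%, in each pair, smallest adjusted p = 0.161), while 783 and 1189 genes had an unadjusted p under 0.05. Of these, 256 were higher (3.6% of genes tested) and 527 lower (7.4%) than with 2OHE2, and 649 higher (9.12%) and 540 lower (7.58%) than with 4OHE1. The 2OHE1 value lay above both others for 28.3% of genes and below both for 34.4%. Limma-voom on recovered reads called 36 and 108 genes, and the authors' deposited log2 values gave 68 and 148. A missed threshold does not show that the compounds act alike: the median standard error of a pair difference was 0.17 log2.

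Between 2OHE1 and 2OHE2, which share the catechol and differ in the D ring, the antioxidant genes lay close. Over the 57 genes of the 5 lists the median of 2OHE1 minus 2OHE2 was 0.02 log2, with 33 genes higher with 2OHE1, where 40.8% of all genes tested were. Gclc differed by 0.11 (95% interval -0.16 to 0.38), Hmox1 by 0.03 (95% interval -0.28 to 0.34), Srxn1 by 0.08 (95% interval -0.14 to 0.31) and Nqo1 by 0.02 (95% interval -0.30 to 0.34). These intervals leave out a 2-fold difference in either direction. Against 4OHE1, with the second hydroxyl elsewhere on the A ring, the median was -0.11 log2 and 15 of the 57 genes were higher with 2OHE1, where 53.0% of all genes tested were. Gss differed by -0.56 (95% interval -0.94 to -0.18), Prdx1 by -0.30 (95% interval -0.51 to -0.09), Sqstm1 by -0.31 (95% interval -0.51 to -0.12), Hmox1 by -0.25 (95% interval -0.56 to 0.06) and Gclm by -0.00 (95% interval -0.25 to 0.24). None of these passed.

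Cytokines and mediators lay apart between the hydroxyestrogens in both directions, but no such difference passed limma's adjusted threshold. The median of the 19 cytokines and mediators was -0.24 log2 from the controls with 2OHE1, -0.55 with 2OHE2 and -0.56 with 4OHE1. Of the 19, 15 were higher with 2OHE1 than with 2OHE2 and 14 higher than with 4OHE1. Over all genes tested the shares were 40.8% and 53.0%. Ifnb1, at 1.59 RPKM with 2OHE2 and 7.41 RPKM with 2OHE1, differed by 2.15 (95% interval 1.58 to 2.72), and by -0.37 (95% interval -0.94 to 0.21) from 4OHE1. Its adjusted p over both pairs was 0.161 against 2OHE2. Il1b differed by 0.57 (95% interval 0.38 to 0.77) from 2OHE2 and by -0.05 (95% interval -0.24 to 0.15) from 4OHE1. Ptgs2 differed by 0.69 (95% interval 0.45 to 0.93) from 2OHE2, and Il6 by 0.52 (95% interval 0.24 to 0.79). Saa3 lay farther from the controls with 2OHE1 (-0.79) than with 2OHE2 (-0.55) or 4OHE1 (-0.56). Edn1 with 2OHE1 differed by -0.54 (95% interval -0.94 to -0.15) from 2OHE2 and by 0.59 (95% interval 0.20 to 0.99) from 4OHE1.

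Most interferon-stimulated genes were higher with 2OHE1 than with the other hydroxyestrogens. Of the 59, 57 were higher with 2OHE1 than with 2OHE2, by a median of 0.20 log2, and 44 were higher than with 4OHE1, by a median of 0.17; over all genes the shares were 40.8% and 53.0%. Rsad2 differed by 0.58 (95% interval 0.36 to 0.81) from 2OHE2 and by 0.36 (95% interval 0.14 to 0.58) from 4OHE1, and Ifit2 by 0.51 (95% interval 0.21 to 0.81) and 0.54 (95% interval 0.24 to 0.84). Gbp7, a guanylate-binding protein, differed by 0.72 (95% interval 0.46 to 0.98) from 4OHE1. Id1 lay lower with 2OHE1 than with either, with differences of -0.94 (95% interval -1.23 to -0.64) and -0.73 (95% interval -1.02 to -0.43). Mt2, a metallothionein, was at 151 RPKM with 2OHE1 and 275 RPKM with 2OHE2, a difference of -0.86 (95% interval -1.17 to -0.55). No gene in this paragraph passed the adjusted threshold.

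Genes that handle catechols and estrogens gave 0 calls among 13 tested by limma, 0 at an unadjusted p under 0.05 and 0 by limma-voom. Cyp1b1, which makes 4-hydroxylated estrogens, read 6.12 to 7.36 RPKM in the controls and 5.54 RPKM with 2OHE1, and Ahr, the aryl hydrocarbon receptor, 9.07 to 9.61 against 10.9 RPKM; neither was called (-0.26 ± 0.20 SE, adjusted p = 0.567 and 0.22 ± 0.15 SE, adjusted p = 0.519). Esr1, the estrogen receptor alpha, was at 0.301 RPKM (24 reads) with 2OHE1 and too low to test. The 17 HSF1 chaperone genes gave 1 call, Ubb (0.61 ± 0.10 SE, adjusted p = 0.03), and the 14 endoplasmic reticulum stress, 13 antigen presentation and 7 metal genes 0 each by limma, with 2, 4 and 5 at an unadjusted p under 0.05 and 0, 2 and 1 called by limma-voom. Over all genes tested, 1259 of 7120 had an unadjusted p under 0.05 by limma, and limma-voom called 402. The lysosome and autophagy list gave 2 of 19, Sqstm1 and Gabarapl1 (0.65 ± 0.12 SE, adjusted p = 0.0424), and the mitochondrial chaperone list 1 of 19, Afg3l2 (0.72 ± 0.11 SE, adjusted p = 0.0216). Without E2 the adjusted p was 0.13 for Ubb, 0.147 for Gabarapl1 and 0.089 for Afg3l2.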

How the data were processed

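The authors deposited RPKM values per gene, made with HOMER over exons and condensed by gene per the file headers, whose column names say FPKM. They also deposited log2 expression values, whose transform is not named per the file headers. The submitters' processing notes list STAR, HOMER, DESeq2, edgeR and mm9 without versions. Versions and strand handling are not given here. The depth behind each value was checked from the RPKM: all low values checked came out whole within 0.1 read, and the RPKM column gave the reads used for limma-voom. The members and lists were chosen with earlier results of these data known.

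Limma 3.58.1 (R 4.3.3) was fitted to log2(RPKM + 0.1) of 7120 genes with 1 coefficient for the controls and 1 for each hydroxyestrogen, a prior variance that follows expression and Benjamini-Hochberg adjustment at 0.05. The 3 controls gave 2 residual degrees of freedom. A fold on this scale understates the change of low genes. The fit was tested on simulated data. SE is the standard error of a difference, and no SD is given where a group is 1 library. Genes were named by 5 rules: the 10 largest rises and falls called, up to 4 members per list with the smallest p, the 8 genes each way farthest beyond the other libraries, the pairs' largest differences past the threshold, and a fixed list. Further list members, and others where said, were named after their values were seen. Alternatives were other pseudocounts, filters, scalings, spreads, the deposited log2 values, limma-voom and leaving out each library. Some members of the lists are counted but not reported by name here.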

Additional observations from a re-analysis of the deposited data

How the results depend on the processing

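The 140 calls against the controls became 402 with limma-voom, 245 without a filter on RPKM (15 of the 140 among them), 447 with the authors' deposited log2 values, 58 when 2OHE2 and 4OHE1 also gave the spread, 5 with a minimum fold of 1.5 and 0 with a constant prior variance. Leaving out 1 control gave 27 to 492 calls, 27 without E2 and 492 without EtOH. The calls against 2OHE2 went from 0 to 36 with limma-voom, 465 without a filter, 68 with the deposited log2 values and 0 to 93 without 1 control. Against 4OHE1 the same settings gave 108, 418, 148 and 0 to 155. Genes with 2OHE1 outside the 5 others numbered 2249, 4671 without a filter, 263 at a distance of at least 0.25 log2, and 2440 to 3237 without 1 library. The cause of these shifts was not tested. The other settings tried kept each of these counts within 1.5 times. For interferon-stimulated genes with 2OHE1 highest (25 to 31) and cell cycle genes with 2OHE1 lowest (11 to 17), every setting tried stayed within that margin. No called gene named changed sign. Differences near 0, none of them called, did: Gbp7 was 0.01 with median-ratio scaling, 0.0102 with the deposited log2 values and -0.034 to 0.007 without 1 control, and Spi1 was 0.0022 with the deposited values. Without 1 control Asns ranged from -0.0884 to 0.0394, Dusp1 from -0.0838 to 0.0613, Isg15 from -0.0176 to 0.0527, and S100a8 from -0.2955 to 0.1017. No paired analysis was possible because 2OHE1 is 1 library and shares only 1 replicate number with the controls. With 1 library for each hydroxyestrogen, its own spread cannot be measured.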

Other observations

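Of the 140 genes called with 2OHE1, 58 higher and 30 lower stood on none of the gene lists; those named here were chosen after their values were seen, and no hypothesis is attached to them. Ass1, argininosuccinate synthase, which rebuilds arginine from citrulline, read 21.7 with EtOH, 19.3 with E2, 20.2 with 16Epi, 38.6 with 2OHE2, 40.4 with 4OHE1 and 45.4 RPKM with 2OHE1 (1.15 ± 0.11 SE, adjusted p = 0.00388). Panx1, a channel that releases ATP, went from 11.1, 12.6 and 11.3 RPKM in the controls to 27.4 RPKM (1.23 ± 0.13 SE, adjusted p = 0.00545). The 3 hydroxyestrogen libraries lay above all controls for both. Ezr, ezrin, which ties the membrane to actin, read 37.6 to 42.8 RPKM in the controls and 79.9 RPKM with 2OHE1 (1.00 ± 0.10 SE, adjusted p = 0.00404), and Nrp1, a co-receptor for semaphorins and VEGF, 28.2 to 32.3 against 56.8 RPKM (0.90 ± 0.11 SE, adjusted p = 0.00736). These 4 remained called without each control in turn. Spic, a transcription factor of iron-recycling macrophages, was at 8.78, 7.70 and 8.74 RPKM in the controls and 16.1 RPKM with 2OHE1 (0.93 ± 0.15 SE, adjusted p = 0.0283; adjusted p = 0.0895 without E2). Treml4, a receptor of the TREM family, was at 6.03, 6.50 and 6.38 RPKM in the controls and 15.0 RPKM (1.24 ± 0.15 SE, adjusted p = 0.00882; 0.0507 in adjusted p without E2). Cat, catalase, which breaks down hydrogen peroxide, was at 200.1 to 223 RPKM in the controls and 313 RPKM with 2OHE1 (0.58 ± 0.08 SE, adjusted p = 0.0159; 0.0895 in adjusted p without E2). In the authors' deposited log2 values the differences were 0.66 for Ass1, 0.65 for Panx1, 0.30 for Spic and 0.45 for Treml4.

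Among the genes called lower, Wfdc17, a secreted protease inhibitor of activated macrophages, read 400.1 with EtOH, 380.2 with E2, 367 with 16Epi, 250.3 with 2OHE2, 223 with 4OHE1 and 200.4 RPKM with 2OHE1 (-0.93 ± 0.08 SE, adjusted p = 0.00172), and remained called without each control. Ccr1, a receptor of CC chemokines, fell from 23.9, 21.3 and 21.7 RPKM in the controls to 12.7 RPKM (-0.80 ± 0.13 SE, adjusted p = 0.0282). Hdc, which makes histamine, went from a control range of 43.8 to 46.7 RPKM to 30.8 RPKM (-0.55 ± 0.10 SE, adjusted p = 0.0354), and Coro1a, an actin-binding protein, from one of 307 to 320.5 RPKM to 238 RPKM (-0.39 ± 0.07 SE, adjusted p = 0.0324). Coro1a was the lowest of the 6 libraries, with the other hydroxyestrogens at 293 and 301 RPKM. Without E2 the adjusted p was 0.0895 for Ccr1, 0.13 for Hdc and 0.142 for Coro1a. The authors' deposited log2 values gave -0.44 for Ccr1 and -0.35 for Hdc.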
